A study of Mus musculus with 6 samples.

Results

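The genes described here encode 3 Janus kinases (JAKs), Jak1, Jak2 and Tyk2, and 6 signal transducers and activators of transcription (STATs), Stat2, Stat3, Stat4, Stat5a, Stat5b and Stat6. They were found in the table of counts by gene symbol and make up 9 of its 33000 genes. Standard Illumina TruSeq mRNA libraries were available from frontal cortex of 3 wild-type (WT) C57BL/6 mice and 3 homozygous GFAP-IL6 mice, all 3 months old. The GFAP-IL6 mouse is a model of neuroinflammation in which the promoter of Gfap, active mainly in astrocytes, drives the cytokine IL6 from a transgene, and the GFAP-IL6 group is labelled with the C57BL/6 strain too. The comparison of the groups asks how the mRNA of these kinases and transcription factors stood in cortex with a chronic local source of IL6.

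JAKs are tyrosine kinases that sit on the intracellular tails of cytokine receptors, and STATs are latent transcription factors that the activated receptor complex phosphorylates. Phosphorylated STATs pair through their SH2 domains, enter the nucleus and bind DNA at palindromic sites. IL6 binds its receptor chain and the shared chain gp130, which signals through JAKs and mainly through STAT3, a factor known in brain for its part in the reactive state of astrocytes. These activating steps act on the proteins, so mRNA levels measure how much message is present and not how active the pathway is.

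The genotype labels were checked on Il6 and Gfap. The counts of Il6 were 0, 2 and 0 in WT replicates 1, 2 and 3, against 12, 10 and 24 in GFAP-IL6 replicates 1, 2 and 3. Gfap, the intermediate filament of astrocytes, rose from 94.5 ± 24.8 to 678 ± 179 CPM (counts per 1 M counts of the library; mean ± SD, n = 3), with an adjusted p of 5.49e-06 in edgeR's quasi-likelihood test with Benjamini-Hochberg adjustment. CPM values here were scaled by the trimmed mean of M-values (TMM). Totals ran from 11.6 to 16.9 M counts in WT (M for mega) and from 7.56 to 11.1 M in GFAP-IL6, so that every GFAP-IL6 library was shallower than every WT library. Markers of neighbouring regions set a pair of WT libraries apart, since WT replicate 3 had 65.7 CPM summed over 5 choroid plexus genes, against 3.31 and 7.93 in the other WT libraries, and WT replicate 2 had 285 CPM over 6 striatal genes, against 153 and 160. Results that turned on 1 library are given with and without it.

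Of the 9 JAK and STAT genes, 1 passed edgeR's test at an adjusted p under 0.05. This was Stat3, whose mRNA was 1.74-fold higher in GFAP-IL6 than in WT cortex (95% interval 1.48 to 2.03). All 9 genes passed the filter on low counts and were tested among 15341 genes. Across all genes tested, 2.65% passed the same test in the higher direction and 0.209% in the lower direction. No JAK or STAT gene was called lower, and 0 of the 9 passed with a log2 fold change over 1, the size threshold of the study, which 1.36% of all genes passed in the higher direction. At an unadjusted p under 0.05, 5 of the 9 genes were higher and 0 lower, beside 11.1% of all genes higher. In 5 genes (Stat3, Stat2, Stat5b, Stat6 and Tyk2) every GFAP-IL6 library stood above every WT library, and the groups of the remaining 4 overlapped. Such separation was common, being found in 13.8% of all genes in the higher direction and 26.5% in either direction. The 9 log2 fold changes had a median of 0.32, while that of all genes tested was -0.004.

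**Figure D1:**
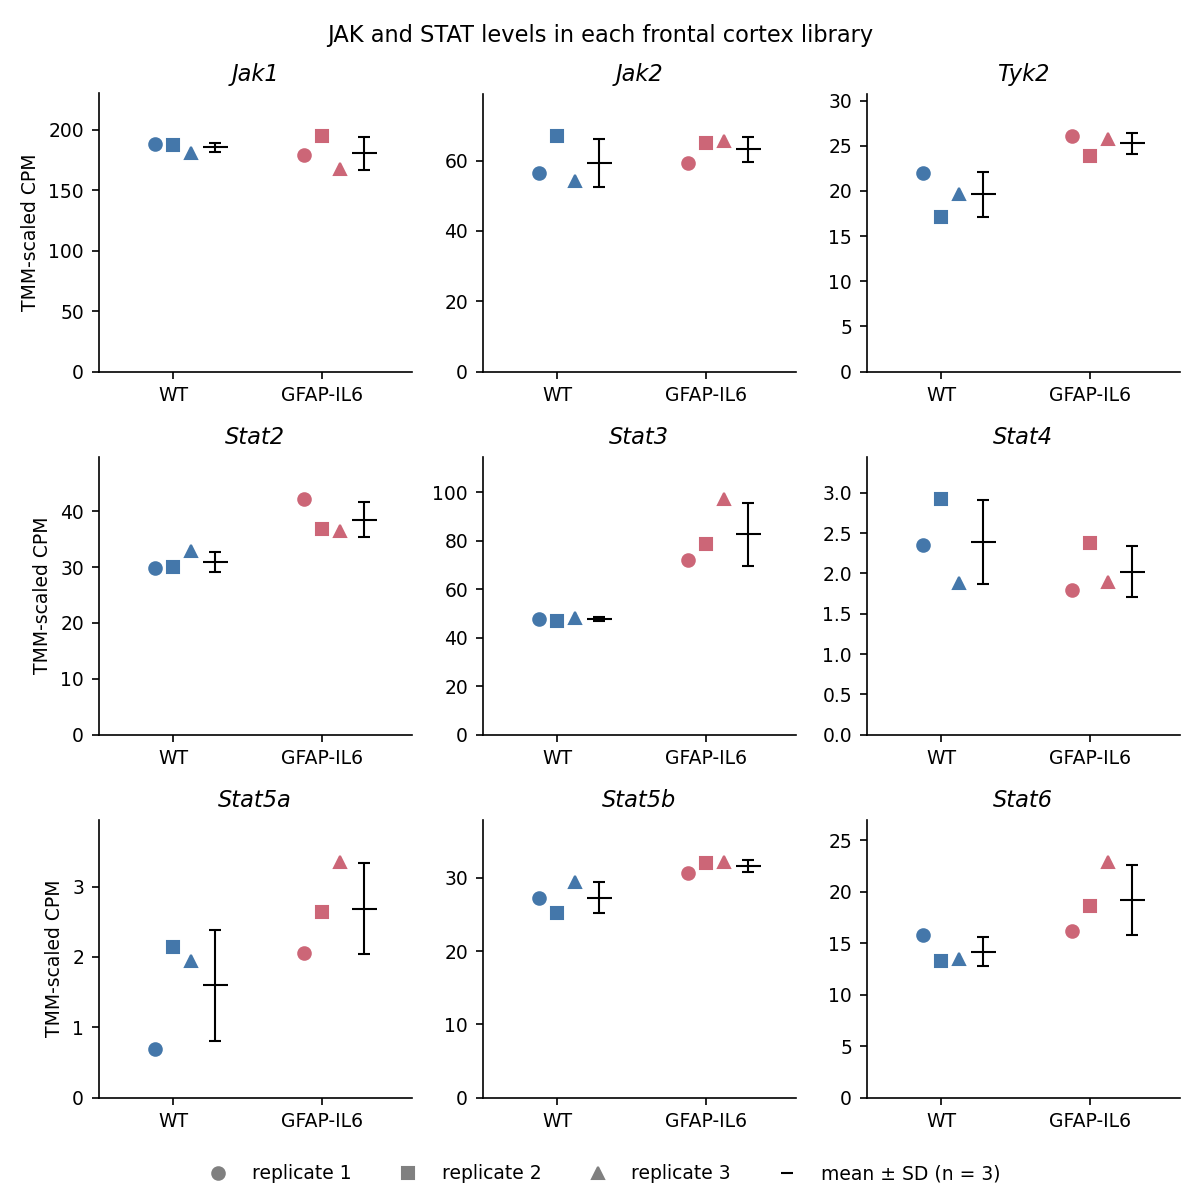
Each panel plots 1 JAK or STAT gene, with TMM-scaled CPM on a vertical axis that starts at 0, a point for each library (shape gives the replicate) and a bar for the mean ± SD of each group (n = 3). The WT libraries of Stat3 lie between 46.7 and 48.2 CPM and the GFAP-IL6 libraries between 72.0 and 97.2, whereas the points of Jak1, Jak2, Stat4 and Stat5a overlap between groups.

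Stat3, the main STAT below gp130, lies on the minus strand of mouse chromosome 11 (GRCm38, the assembly also called mm10). Its level was 47.8, 46.7 and 48.2 CPM in WT replicates 1, 2 and 3 and 72.0, 78.8 and 97.2 CPM in GFAP-IL6 replicates 1, 2 and 3. The 3 WT libraries kept close to their mean of 47.6 ± 0.784 CPM (SD), the 3 GFAP-IL6 libraries were more spread around 82.7 ± 13.1 CPM, and the groups lay well apart. On the log2 scale the difference came to 0.80 ± 0.11 (SE, n = 3 per group), at an adjusted p of 0.000858 by edgeR's quasi-likelihood test, and 97.1% of the genes tested had a smaller log2 fold change. Stat3 was also called without either WT library that stood apart in regional markers. Without WT replicate 2 the log2 fold change was 0.78 (edgeR adjusted p = 0.000316), and without WT replicate 3 it was 0.80 (edgeR adjusted p = 0.00377). GFAP-IL6 replicate 3, the library with the most Stat3, also had the most Il6 and Gfap. Its summed markers of astrocytes (7543 CPM, Gfap included), microglia and macrophages (920 CPM) and endothelial cells (335 CPM) were the highest too. Without GFAP-IL6 replicate 3 the log2 fold change of Stat3 was 0.67 (edgeR adjusted p = 0.00435).

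Because STAT3 is known to act on the promoters of several genes of its own pathway, the sequence just upstream of Stat3 is shown with that of Stat2, whose window held matches to 2 of the 3 motifs searched for. The 250 bases before the RefSeq start of each gene (GRCm38.p6), written 5′ to 3′ on the strand of the gene, were the following, with motif matches in capitals.
Stat3, chr11:100939541-100939790, minus strand: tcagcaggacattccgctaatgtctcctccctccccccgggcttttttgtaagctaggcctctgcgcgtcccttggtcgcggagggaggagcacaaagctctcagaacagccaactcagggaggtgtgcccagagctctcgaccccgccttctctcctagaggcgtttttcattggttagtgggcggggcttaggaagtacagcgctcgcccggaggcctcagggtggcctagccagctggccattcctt
Stat2, chr10:128270248-128270497, plus strand: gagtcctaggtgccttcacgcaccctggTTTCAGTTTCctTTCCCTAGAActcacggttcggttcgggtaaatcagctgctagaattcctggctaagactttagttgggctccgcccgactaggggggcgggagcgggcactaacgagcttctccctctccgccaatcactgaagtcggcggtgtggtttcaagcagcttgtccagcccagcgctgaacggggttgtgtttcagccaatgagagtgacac
Each window was searched on both strands over 300 bases (250 before and 50 after the start) for the palindromic STAT site TTCNNNGAA, for its form with a spacer of 4 bases in place of 3 (TTC and GAA with any 4 bases between them), and for the interferon response letters (GAAA and GAAA with any 2 bases between them, which read TTTC and TTTC on the other strand). RefSeq gave 12 such windows for the 9 genes, since 3 of them (Stat4, Stat5a and Stat5b) have more than 1 start. The site TTCNNNGAA was in 0 of the 12 windows and in 8.30% of 32851 windows of all genes. The site with 4 bases between was in 1 of 12 (Stat2, at -210 from the start) and in 6.95% of all windows. The interferon response letters were in 2 of 12 and in 3.44% of all windows, once in Stat2 at -222 and once in the downstream start of Stat4 at -97, where the match at chr1:52008143-52008152 (plus strand) is shown in capitals with the bases around it.
Stat4, second start: aatgtcttcaGAAAGTGAAAtttagaacgg
The window of Stat3 therefore held none of the 3 sets of letters, which describes only these bases. In Stat2 both matches lay within the first 50 printed bases, next to each other.

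The 3 kinases did not pass the test. Jak1, which serves gp130, interferon and many other receptors, had 188, 187 and 181 CPM in the WT libraries and 179, 195 and 168 CPM in the GFAP-IL6 libraries. Its groups overlapped, and the log2 fold change of -0.04 had a 95% interval from -0.22 to 0.14, which leaves out a change as large as that of Stat3 in either direction. The sign of this small difference was not stable, being 0.01 without GFAP-IL6 replicate 3 and 0.03 as a ratio of mean TPM (counts per length of gene, rescaled to a common total). Jak2, the kinase of single-chain hormone receptors and of the shared receptor chain of GM-CSF, had 56.4, 67.0 and 54.2 CPM in WT and 59.2, 65.0 and 65.6 CPM in GFAP-IL6. The highest Jak2 value of all 6 libraries was thus that of WT replicate 2, and the log2 fold change was 0.09 with a 95% interval from -0.12 to 0.30. Leaving out WT replicate 2 gave a log2 fold change of 0.19, still not called (edgeR adjusted p = 0.252). The remaining values above then did not overlap between groups.

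Tyk2, the partner kinase on type I interferon, IL10 and IL12 receptors, was the one kinase whose groups did not overlap. It had 22.0, 17.1 and 19.7 CPM in WT and 26.1, 23.9 and 25.8 CPM in GFAP-IL6, with a log2 fold change of 0.37 ± 0.11 (SE). The adjusted p was 0.105 in edgeR's quasi-likelihood test over all libraries and 0.0340 without WT replicate 1, the WT library with the most Tyk2 and the fewest counts. In GENCODE release M21, 8.07% of the exon bases of Tyk2 lie under the antisense gene 1700084C06Rik. The sources do not say whether strand was used in counting, so reads from that stretch cannot be assigned to one of the pair, although 1700084C06Rik itself had only 15 to 29 counts per library.

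**Figure D2:**
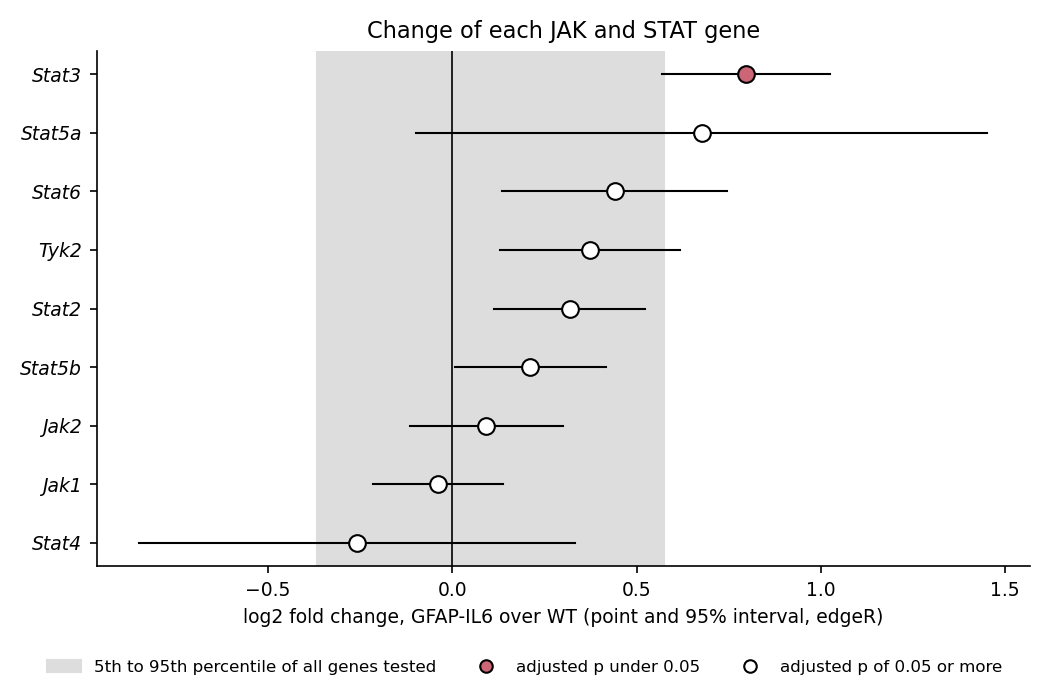
Points are the log2 fold change of each JAK and STAT gene (horizontal axis, GFAP-IL6 over WT, edgeR, 3 libraries per group) and lines are 95% intervals, while the grey band spans the 5th to 95th percentile of all genes tested (-0.37 to 0.57). Stat3 at 0.80 is the filled point (adjusted p under 0.05), and the interval of Stat5a, from -0.10 to 1.45, is the widest.

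After Stat3, the STATs with the smallest p were Stat2 and Stat6, and neither passed the test. Stat2, which joins IRF9 in the complex that carries type I interferon signals, had 29.9, 30.0 and 33.0 CPM in WT and 42.2, 36.8 and 36.5 CPM in GFAP-IL6. This made a log2 difference of 0.32 ± 0.09 (SE) at an adjusted p of 0.0983 in edgeR's quasi-likelihood test. Stat6, the factor below the IL4 and IL13 receptors, had 15.8, 13.3 and 13.4 CPM in WT and 16.1, 18.6 and 22.9 CPM in GFAP-IL6. The lowest GFAP-IL6 value of Stat6 was only just above the highest WT value, and edgeR gave a log2 difference of 0.44 ± 0.14 (SE) at an adjusted p of 0.117. Without the filter on low counts, when 22621 genes were tested, Stat6 had an adjusted p of 0.0375 in the same edgeR test and counted as called.

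Stat5a and Stat5b, the near-identical pair that responds to growth hormone, prolactin and GM-CSF, differed greatly in level and in precision. Stat5b had 27.2, 25.2 and 29.4 CPM in WT and 30.7, 32.0 and 32.2 CPM in GFAP-IL6, without overlap. The log2 difference of 0.21 ± 0.09 (SE) had an edgeR adjusted p of 0.231. The counts of Stat5a were 8, 36 and 31 for the WT replicates and 23, 20 and 30 for the GFAP-IL6 replicates, or 0.697, 2.15 and 1.95 CPM against 2.06, 2.64 and 3.35 CPM. WT replicate 1 stood below the other 5 libraries, and the groups overlapped with or without it. With it, the log2 fold change of Stat5a was 0.68 ± 0.36 (SE, edgeR adjusted p = 0.303), and without it 0.38 (edgeR adjusted p = 0.430). At these counts a change of Stat5a as large as that of Stat3 could not be told from none, as the interval from -0.10 to 1.45 held both.

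Stat4, which responds to IL12 in lymphocytes, was the other STAT of low count. Its counts were 27, 49 and 30 for the WT replicates and 20, 18 and 17 for the GFAP-IL6 replicates, which after scaling by the totals came to 2.35, 2.92 and 1.88 CPM against 1.79, 2.38 and 1.90 CPM. The groups overlapped, and the log2 fold change was -0.26 ± 0.27 (SE, edgeR adjusted p = 0.620). In GENCODE M21, 26.7% of the exon bases of Stat4 are shared with Gm28177 on the same strand. That gene was not analysed here, and the counts were made with an earlier GENCODE release, in which the overlap was not checked.

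The genes Stat5b, Stat5a and Stat3 stand next to each other on chromosome 11 (GRCm38, GENCODE M21). Stat5b occupies chr11:100780731-100850724 on the minus strand, Stat5a chr11:100859351-100885169 on the plus strand, and Stat3 chr11:100885098-100939540 on the minus strand. Stat5b and Stat5a are separated by 8626 bases, and the 3′ ends of Stat5a and Stat3 overlap by 72 bases. Within this cluster Stat3 rose and its neighbours did not pass the test. Stat6 and Stat2 lie on chromosome 10, 610 kb apart with 26 protein-coding genes between them. Stat5a and Stat5b share sequence with each other: of all stretches of 75 bases in their transcripts, 5.12% of those in Stat5a and 6.99% of those in Stat5b also occur in the other gene, and reads there cannot be placed uniquely. The shared stretches were 0 for Stat3, Jak1, Jak2 and Stat6, but the overlap of Stat5a and Stat3 is shorter than 75 bases and could not count. Genes on the opposite strand cover 0.756% of the exon bases of Stat3, 0.909% of Stat6 and 0.055% of Jak1. Strand use in counting is not given, so reads there may be ambiguous. The likeness of the pair reaches past the coding region. The second RefSeq start of each gene stands in or next to a run of 65 bases with 58 identical positions (89.2%), shown here with identical bases in capitals. The run spans -66 to -2 from the start in Stat5a and -57 to 7 in Stat5b.
Stat5a, chr11:100860418-100860482, plus strand: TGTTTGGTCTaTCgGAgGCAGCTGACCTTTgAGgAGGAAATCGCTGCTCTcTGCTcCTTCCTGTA
Stat5b, chr11:100822563-100822627, minus strand: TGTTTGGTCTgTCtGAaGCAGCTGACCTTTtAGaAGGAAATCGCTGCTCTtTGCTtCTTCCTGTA

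Levels of different genes were compared per length, as TPM computed with the gene lengths of the table. In WT cortex Jak1 was highest at 105 ± 3.90 TPM (SD, n = 3), followed by Jak2 at 32.6 ± 2.98, Stat3 at 21.2 ± 0.907, Stat2 at 19.5 ± 1.24, Stat5b at 13.7 ± 1.30, Tyk2 at 11.8 ± 1.82 and Stat6 at 10.4 ± 1.31 TPM. Stat4 at 2.10 ± 0.419 and Stat5a at 1.11 ± 0.527 TPM were far below these. In this order the ranges of Stat3 and Stat2, of Stat5b and Tyk2, and of Tyk2 and Stat6 overlapped, while the ranges of the other neighbours were separated. Within each of the 3 WT libraries, every gene stood above the next in this order.

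In GFAP-IL6 cortex Jak1 was again highest at 107 ± 7.91 TPM, and Stat3 at 38.7 ± 5.91 TPM took the place after it, ahead of Jak2 at 36.7 ± 1.73 TPM. The ranges of Stat3 and Jak2 overlapped, and Stat3 was above Jak2 in 1 of the 3 libraries. Below them came Stat2 at 25.6 ± 2.38, Stat5b at 16.6 ± 0.278, Tyk2 at 15.9 ± 0.867 and Stat6 at 14.8 ± 2.55 TPM. Stat3 no longer overlapped Stat2 in this group. Stat5a at 1.97 ± 0.461 and Stat4 at 1.87 ± 0.274 TPM overlapped each other at the bottom. The order depended on the length given to each gene. With all annotated exon bases of GENCODE M21 as length (9527 for Stat3 in place of 6228), Stat3 came after Stat2 in WT at 13.9 against 14.5, with overlap, and after Jak2 in GFAP-IL6 at 25.3 against 36.7, without overlap.

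**Figure D3:**
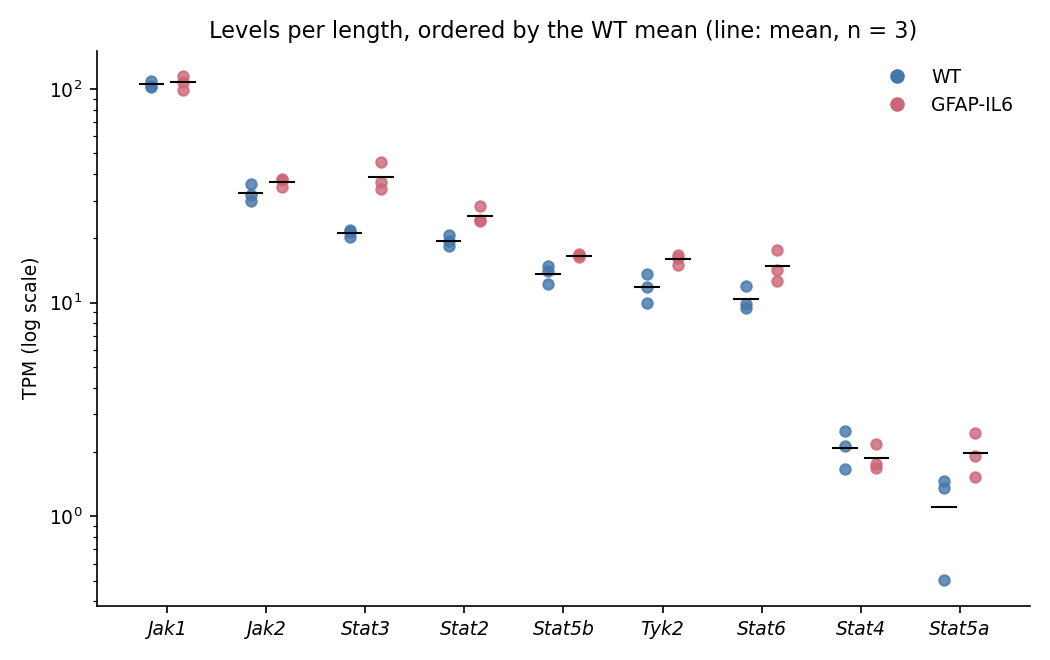
TPM of each gene on a logarithmic vertical axis, with 1 point per library, a line at the group mean (n = 3) and genes ordered by their WT mean. Stat3 moves from 21.2 TPM in WT, next to Stat2 at 19.5, to 38.7 TPM in GFAP-IL6, next to Jak2 at 36.7, while Stat4 and Stat5a stay at or below 2.50 TPM in every library.

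Summed per length, the 6 STATs stood higher in every GFAP-IL6 library than in any WT library, and the sums of the 3 kinases overlapped. The summed TPM of the STATs was 68.1 ± 3.31 in WT and 99.5 ± 7.47 in GFAP-IL6, without overlap. By the exact permutation test (two-sided) p was 0.1, and no smaller value is possible with 3 libraries in each group. The summed TPM of the kinases was 149 ± 5.33 in WT and 160 ± 7.07 in GFAP-IL6, with overlapping groups and an exact permutation p of 0.2. On the TPM scale the median of all genes tested was itself 0.07 higher on log2 in GFAP-IL6, a shift that the TMM scale does not carry.

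Stat3 took a larger part of the STAT pool in every GFAP-IL6 library than in any WT library. It made up 31.4%, 31.4% and 30.7% of the summed STAT TPM in the WT libraries and 36.1%, 38.2% and 41.9% in the GFAP-IL6 libraries, a difference of 7.55 percentage points without overlap. Stat5b held 20.1% ± 1.02 in WT and 16.8% ± 1.01 in GFAP-IL6, and Stat4 held 3.11% ± 0.760 and 1.89% ± 0.343 (SD, n = 3), both lower without overlap. The shares of Stat2, Stat6 and Stat5a overlapped between groups. Among the 3 kinases, the share of Tyk2 was 7.90% ± 1.07 in WT and 9.99% ± 0.910 in GFAP-IL6, and that of Jak1 was 70.3% ± 0.981 and 67.1% ± 2.09, each without overlap. Every share without overlap had an exact permutation p of 0.1, the smallest possible. A share can be lower because another is higher, and the levels of Stat5b and Stat4 themselves did not pass the test.

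**Figure D4:**
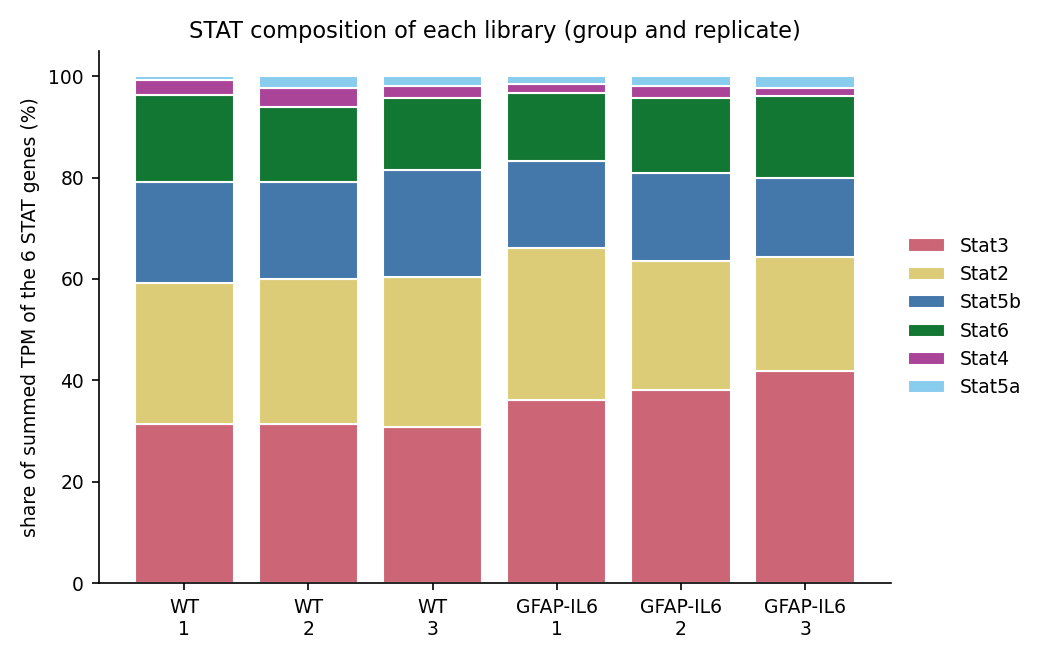
Bars give, for each library, the percent of the summed TPM of the 6 STAT genes that each gene takes. The lowest segment, Stat3, takes between 30.7% and 31.4% in the WT libraries and between 36.1% and 41.9% in the GFAP-IL6 libraries.

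Ratios within a library compare 2 members without any scaling between libraries. Of the 36 pairs of members, the ratio did not overlap between groups in 14. Of the 8 pairs with Stat3, 7 did not overlap, and of the 28 pairs without it, 7. The 8 pairs share Stat3, so their count restates its change and is not a set of separate results, and the same share for ratios of other genes was not computed. After thinning every library to the smallest total, 6 of the 8 did not overlap. Stat3 was 0.652 times Jak2 in WT and 1.05 times Jak2 in GFAP-IL6, 1.09 and 1.51 times Stat2, and 1.56 and 2.31 times Stat5b, as geometric means of TPM ratios over 3 libraries. The smallest of the 7 differences was that against Stat6, with ratios of 2.04 in WT and 2.61 in GFAP-IL6. The exception was Stat5a, where Stat3 was 21.2 times as high in WT and 19.9 times in GFAP-IL6, with an exact permutation p of 1. Without WT replicate 1, the library with 8 counts of Stat5a, the log2 difference of this ratio turned from -0.10 to 0.42. The smallest exact permutation p of a ratio was 0.1, or 0.257 after Benjamini-Hochberg adjustment over the 36 pairs, so no pair could pass.

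Over the 6 libraries, the genes whose pattern was most like that of Stat3 were Fndc8, Atp8b1, Tmem119, Igfbp7 and Sema3g. Likeness was the root mean square difference of centred log2 CPM, compared over 15323 genes with counts in every library, and was 0.0499, 0.0597, 0.0633, 0.0665 and 0.0684 for these genes. Fndc8 itself did not pass the test (log2 fold change 0.75, edgeR adjusted p = 0.0794), and the other 4 passed. Since these genes were picked for likeness to Stat3, a difference between the groups comes with the choice and is no separate result. Among the JAKs and STATs, Stat6 was closest to Stat3, with 246 genes closer (Stat3 itself included), then Tyk2 with 771, Stat2 with 1413 and Stat5b with 1600. Jak2 had 3712 genes closer, Jak1 7954 and Stat5a 12171, and Stat4 was the farthest, with 13345 genes closer. Stat4 and Stat5a had only 8 to 49 counts per library, and this measure does not separate counting error from other differences. All of these patterns rest on the same 6 libraries and share their scaling.

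Genes around the JAKs and STATs were taken from 7 lists of known ligands and receptors, inhibitors and targets, drawn up when earlier results of these data were known. Of 104 genes listed, 83 were tested, 22 were called higher and 0 lower, beside 2.65% and 0.209% of all genes tested. Il6 and Gfap, used above to check the genotype labels, are among the genes called higher. Several lists hold genes also known in microglia and reactive astrocytes, and genes that stand in more than 1 list are counted once in this total.

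**Figure D5:**
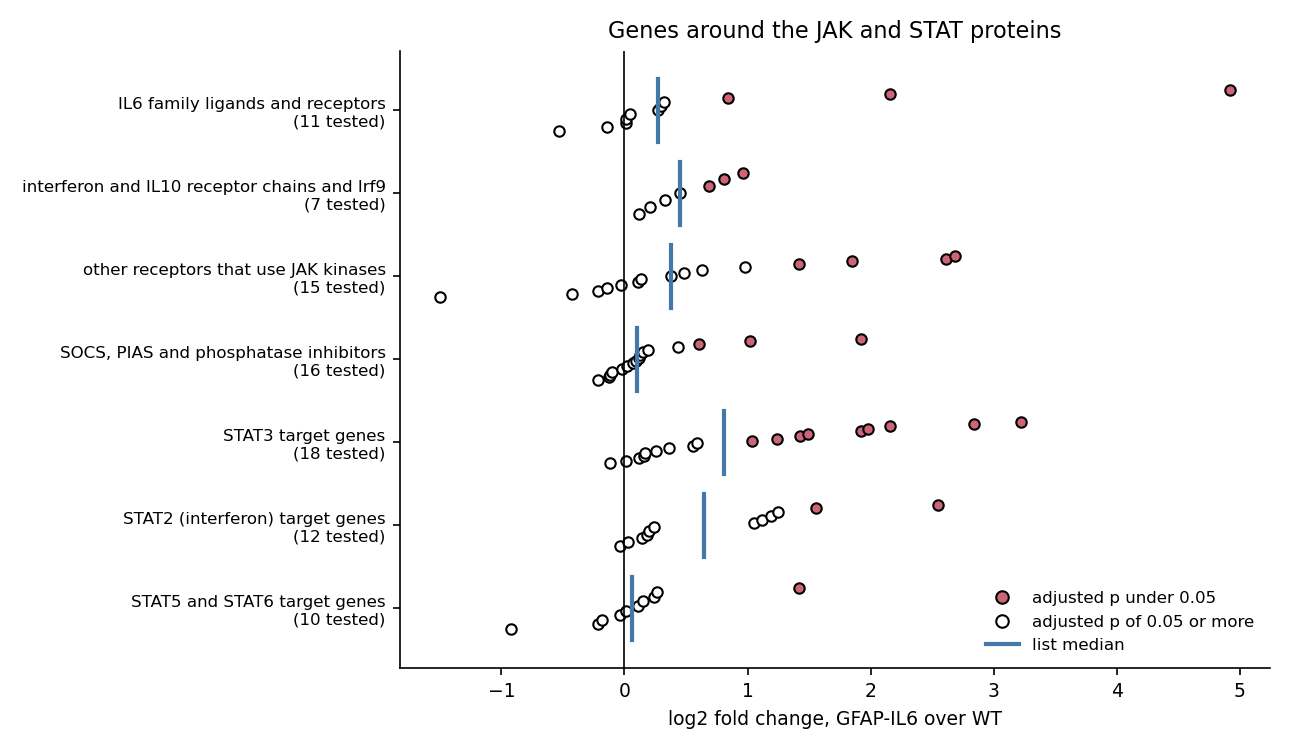
Points are the log2 fold change (horizontal axis, GFAP-IL6 over WT, edgeR, 3 libraries per group) of each tested gene in the 7 lists, filled where the adjusted p was under 0.05, and blue lines are list medians. Filled points lie to the right of 0 in every list, with 9 of 18 among STAT3 targets and 1 of 10 among STAT5 and STAT6 targets. Il6, the point farthest right, had at most 2 counts in each WT library, so its fitted value depends on the prior count and is no measure of size.

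On the side of the ligand and its receptors, 3 of 11 tested IL6 family genes were called higher, and the 11 log2 fold changes had a median of 0.27. Osmr, the oncostatin M receptor chain that pairs with gp130, rose from 3.59 ± 0.229 to 16.1 ± 2.54 CPM (log2 fold change 2.16), and Il6ra, the IL6-binding chain, rose from 7.24 ± 0.782 to 13.0 ± 0.561 CPM (log2 fold change 0.84). Il6 itself was the third, and its transgene defines the GFAP-IL6 group, so its call is no separate result. Il6st, which encodes gp130, had 82.8 ± 3.15 CPM in WT and 102 ± 7.20 CPM in GFAP-IL6 without overlap (log2 fold change 0.30, edgeR adjusted p = 0.0851), and Lifr had 59.4 ± 1.06 and 59.9 ± 3.72 CPM.

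Chains of cytokine receptors outside the IL6 family held called genes too. Of 7 tested interferon and IL10 receptor chains with Irf9, the partner of STAT2, 3 were called higher: Il10ra (log2 fold change 0.96), Ifngr1 (0.81) and Irf9 (0.68). Ifnar1 and Ifngr2, those with the highest CPM among the genes not called, had log2 fold changes of 0.21 and 0.11. Of 15 tested chains of other cytokine receptors, 4 were called higher. These were the G-CSF receptor Csf3r, which rose from 6.14 ± 1.31 to 22.4 ± 1.83 CPM, Csf2rb (log2 fold change 2.68), the beta chain shared by the GM-CSF, IL3 and IL5 receptors, Csf2rb2 (2.61), the beta chain of the mouse IL3 receptor, and Il4ra (1.42), the chain from which STAT6 signals. Csf2ra and Ghr had log2 fold changes of 0.49 and -0.14 and were not called. Csf2rb and Csf2rb2 are close copies, so reads may be shared between them.

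Among inhibitors, 3 of 16 tested genes were called higher. Socs3, the feedback inhibitor that binds gp130, rose from 2.73 ± 0.264 to 10.4 ± 1.68 CPM (log2 fold change 1.92). The phosphatases Ptpn1, which acts on JAK2 and TYK2, and Ptpn6, known mainly in blood cells and microglia, had log2 fold changes of 0.61 and 1.02. The inhibitors with the highest CPM among those not called were Ptpn11, with 210 ± 9.45 and 207 ± 7.37 CPM, and Socs7, with 138 ± 15.7 and 157 ± 4.80 CPM. The 16 log2 fold changes had a median of 0.11.

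Targets known for each STAT are given side by side, and the difference between these lists was not tested. Of 18 tested genes known as STAT3 targets, 9 were called higher and all 9 had a log2 fold change over 1, with a list median of 0.81. Beside Gfap, Osmr and Socs3, these included the fibrinogen-like protein Fgl2 (log2 fold change 1.98), the acute phase gene Serpina3n (1.43) and the adhesion molecule Icam1 (1.24). Bcl2l1 and Hif1a, which had the highest CPM among those not called, had log2 fold changes of 0.01 and -0.11. Of 12 tested interferon targets of STAT2, 2 were called higher, Oas2 (2.54) and Ifitm3 (1.56), with a list median of 0.65, and Ifit2 and Ifit3 had 0.03 and -0.04. This count was the least stable, being 4 without WT replicate 1 and 6 without the filter on low counts. Of 10 tested targets of STAT5 and STAT6, 1 was called higher, Il4ra, with a list median of 0.06, and 3 further genes of that list had at most 3 counts in every library.

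Markers of other cell types differed between the groups as well. Of 10 microglia and macrophage markers, 9 were called higher, the smallest p being those of Itgam (log2 fold change 2.03) and C1qa (1.61). The marker not called, P2ry12, went the other way with overlapping groups (log2 fold change -0.27, edgeR adjusted p = 0.291). The summed level of the 10 markers was 395 to 485 CPM in WT and 796 to 920 CPM in GFAP-IL6. Of 8 endothelial markers, 5 were called higher, the smallest p being those of Flt1 (log2 fold change 0.75) and Ly6c1 (0.98), and their summed level was 190 to 210 CPM in WT and 288 to 335 CPM in GFAP-IL6. The endothelial count was 3 without any 1 of the GFAP-IL6 libraries. Of 9 astrocyte markers 1 was called, Gfap, and the summed level overlapped (5288 to 6651 CPM and 6235 to 7543 CPM). The largest part of this sum was Slc1a2 (3638 ± 523 CPM in WT and 4018 ± 314 CPM in GFAP-IL6). By log2 fold change 5 of the 9 were higher and 4 lower. Aqp4 was higher (0.42) and Aldh1l1 lower (-0.21) without overlap, neither called. No neuron marker of 10 and no oligodendrocyte marker of 8 was called, and both sums overlapped. Of the neuron markers, 8 had a log2 fold change below 0 and 2 above, with a median of -0.10. Snap25, Gad1, Gad2 and Stmn2 were lower without overlap (log2 fold changes -0.20, -0.22, -0.17 and -0.25). Across all genes tested, 26.5% did not overlap in either direction. Of 13 leukocyte markers, 9 had at most 3 counts in every library and Cd3d had 0 counts in all 6. Only 1 was tested, Cd4, whose groups overlapped (log2 fold change -0.51). Ccr2 had 0.444 ± 0.246 CPM in WT and 1.12 ± 0.412 CPM in GFAP-IL6, higher without overlap but under the filter on low counts. Cd3e, Cd8a and Nkg7 were also higher without overlap, at no more than 3 counts per library. In such bulk samples, more cells of a type and more RNA per cell cannot be told apart, and the part of microglia and endothelial cells in the higher level of Stat3, or in the levels of the other JAKs and STATs, was not tested.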

How the data were processed

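Frontal cortex mRNA of 3 WT and 3 GFAP-IL6 mice was analysed, with groups and replicate numbers taken from the sample titles. The counts are whole reads per gene as deposited by the authors, without normalization. According to the published methods, STAR 2.4 was used for alignment to mm10, and reads were counted with featureCounts on a GENCODE annotation earlier than M21. Strand use in counting is not given in the sources used here.

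Counts were tested with edgeR 4.0.16 in R 4.3.3 (quasi-likelihood F-test, TMM scaling, filterByExpr, Benjamini-Hochberg adjustment over 15341 genes, no covariate), and a gene was called at an adjusted p under 0.05. Single values were compared by exact two-sided permutation tests over libraries. TPM used the deposited gene length. Coordinates come from GENCODE M21 and promoter windows from RefSeq. Floors of 3 counts and totals limit counting error only, and reads carried no molecular identifiers. Alternatives covered scaling, filters, DESeq2 1.42.0, limma-voom (limma 3.58.1), a replicate block, thinning to the smallest total and leaving out each library.

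The members and lists were chosen with earlier results of these data known. From each pathway list, up to 6 called genes with the smallest p and up to 2 abundant genes not called were named, and from each cell type list up to 2 genes. All 9 JAK and STAT members, Il6, Gfap and the 5 genes most like Stat3 were named, and any other gene named was chosen after its values were seen. Other genes of both families are not reported here.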

Additional observations from a re-analysis of the deposited data

How the results depend on the processing

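Stat3 was called in all 16 alternatives that gave a test, with log2 fold changes from 0.59 (DESeq2 with its prior) to 0.89 and adjusted p between 8.53e-09 and 0.00468. When each library was left out in turn, the log2 fold change of Stat3 ranged from 0.67 to 0.89 and stayed called. The number of members called was 1 except for 2 without the low-count filter (Stat6 added) and 2 without WT replicate 1 (Tyk2 added), so its range over libraries left out was 1 to 2. Pathway genes called were 22, and 34 without the low-count filter, with a range of 18 to 28 over libraries left out. The share of Stat3 in the STAT pool differed by 5.94 to 8.88 percentage points over libraries left out. Of its 8 ratios, 7 to 8 then did not overlap, and 6 after thinning to the smallest total. Leaving out a library cannot bring overlap to ratios that had none. The count of 7 was thus the lowest possible there and is no test of stability.

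Directions that turned were Jak1 (log2 fold change 0.0144 without GFAP-IL6 replicate 3, with a range down to -0.0977, and 0.0314 as a ratio of mean TPM, a scale added after seeing the data), the log2 ratio of Stat3 to Stat5a (0.42 without WT replicate 1, range -0.40 to 0.42), the Stat5a share (-0.142 points without WT replicate 1, range -0.142 to 0.633) and the Stat6 share (0.386 points without WT replicate 1 and 0.262 without GFAP-IL6 replicate 1, range -1.21 to 0.386). The cause was not tested. Gene lengths from all annotated exon bases were also added after seeing the data, and gave a Stat3 share difference of 7.04 points.

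Genes called over the whole table numbered 439, and 187 to 1061 with a library left out (lowest without GFAP-IL6 replicate 3, highest without WT replicate 1), 1154 without the low-count filter, 514 with DESeq2 and 750 with the replicate block. The share called higher was 92.7%, against 69.4% without the filter, 80.9% with DESeq2, 79.2% with the block and 65.2% without WT replicate 1.

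Same-numbered libraries correlated at 0.089, 0.013 and 0.011 in their deviations from group means, and differently numbered ones at -0.075 to 0.053. WT replicate 2 and GFAP-IL6 replicate 3 correlated best with each other (0.053), and the numbers were not taken as pairs. These values do not decide whether the libraries were paired. With the replicate block, 1 member was called, Stat3 (log2 fold change 0.79, edgeR adjusted p = 0.000515), and 29 pathway genes. Depth limits Stat4 and Stat5a most, with 8 to 49 counts per library.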
